A study of Mus musculus with 12 samples.

Results

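The 10 genes described here belong to the microglial TREM2 receptor pathway or to the risk loci of Alzheimer's disease, and their RNA was followed across 4 regions of the adult mouse brain. They are Trem2, Tyrobp, Syk, Plcg2, Inpp5d, Bin1, Picalm, Cd2ap, Sorl1 and Abi3. They were chosen by name, as genes of this pathway or risk loci known to be active in microglia, and all 10 were found among the 23337 gene symbols of the count table. All 10 also passed the filter on low counts that left 12217 genes for testing. The study measured poly(A) RNA by bulk sequencing in 12 libraries of sorted microglia, 3 each from cerebellum, striatum, hippocampus and cortex, and set the regions against each other. All animals were wild type male mice of the C57BL/6N strain at postnatal day 60, untreated as far as the labels say. Each library was made from 3000 live cells that stained for the microglial surface protein TMEM119, with low CD45 and with CD11b, taken from tissue pooled from 3 to 5 mice. Nothing in the labels says whether separate mice went into the 3 pools of one region. The p-values therefore set differences only against the variation between these libraries, and that variation may be technical. The gate selects cells by TMEM119 protein, so microglia without it were not sampled.

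TREM2 is a cell surface receptor for lipids, lipoproteins and cell debris. It has no signalling tail of its own and pairs in the membrane with TYROBP (also called DAP12), an adaptor whose tyrosine motif is phosphorylated by Src family kinases and then recruits the kinase SYK. SYK activates phospholipase C gamma 2 (PLCG2), which cleaves a membrane phosphoinositide into messengers that release calcium and activate protein kinase C, while the lipid phosphatase SHIP1, encoded by Inpp5d, limits phosphoinositide signalling. In humans, loss of TREM2 or TYROBP causes a dementia with bone cysts. Common or rare variants at several of the loci named here have been associated with Alzheimer's disease. BIN1, PICALM and CD2AP act in membrane curvature, clathrin coats and the link of receptors to actin, SORL1 is a sorting receptor of the endosome, and ABI3 is an adaptor of the actin-regulating WAVE complex.

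The promoters of Trem2, Inpp5d and Sorl1 are shown because these are the receptor gene, the gene whose striatal libraries all lay above the hippocampal ones, and the gene that varied most between libraries. Each line gives the 250 bases before a start site, 5′ to 3′ on the strand of the gene, from RefSeq on GRCm38.p6. Capitals mark the hexamer GAGGAA, the core of sites bound by the myeloid factor PU.1, or its reverse complement TTCCTC.
Trem2 promoter, chr17:48346151-48346400, plus strand: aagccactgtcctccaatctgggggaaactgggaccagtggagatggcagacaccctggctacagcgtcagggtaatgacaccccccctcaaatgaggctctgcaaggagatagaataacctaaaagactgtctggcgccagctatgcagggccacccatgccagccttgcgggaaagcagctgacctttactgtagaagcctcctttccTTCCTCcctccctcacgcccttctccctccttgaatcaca
Inpp5d promoter, chr1:87620062-87620311, plus strand: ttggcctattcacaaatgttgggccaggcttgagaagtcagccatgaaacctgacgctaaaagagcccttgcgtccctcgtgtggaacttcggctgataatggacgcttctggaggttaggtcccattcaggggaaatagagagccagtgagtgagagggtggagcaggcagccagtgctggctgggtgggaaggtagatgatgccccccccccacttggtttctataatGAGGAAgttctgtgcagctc
Sorl1 promoter, chr9:42124298-42124547, minus strand: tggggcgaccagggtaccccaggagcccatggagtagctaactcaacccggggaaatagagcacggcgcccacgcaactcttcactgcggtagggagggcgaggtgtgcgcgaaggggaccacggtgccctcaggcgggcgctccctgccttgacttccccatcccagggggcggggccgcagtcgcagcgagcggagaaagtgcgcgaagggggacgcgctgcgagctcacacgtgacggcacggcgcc
The hexamer lay 40 bases before the start of Trem2, on the opposite strand, and 20 bases before the start of Inpp5d, on the same strand. The window before this start of Sorl1 does not hold these letters. Promoters of 7 of the 10 genes were examined, at 9 start sites in all. The hexamer was held, on either strand, at 4 of these start sites, in 4 genes (Trem2, Inpp5d, Picalm and Syk at the second of its starts). Over all 32851 promoters of that length the share was 23.3%, and a match is a description of the letters only.

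The libraries held 6479839 to 14833340 counts. All 10 microglial markers were detected in every library (summed level 29660 to 40680 CPM, counts per 1000000 counts of the library), and each of the 10 was tested. Markers of other cells were low: the neuronal list summed to 5.85 to 37.11 CPM with Cbln1 at 0 throughout, the oligodendrocyte list to 99.98 to 200.3 CPM (mostly Cnp), the astrocyte list to 36.26 to 117.4 CPM (mostly Slc1a3), the endothelial and mural list to 17.83 to 42.98 CPM and the oligodendrocyte precursor list to 0.1054 to 10.66 CPM. The border macrophage list summed to 256.2 to 861.3 CPM, mostly Mrc1, the monocyte list to 0.1617 to 17.28 CPM with Ly6c2 and Lcn2 at 0, and the lymphocyte list to 92.46 to 204.5 CPM, mostly Cd79b (Cd79a reached 33.25 CPM, in striatum 1), with Cd3e, Cd3g and Ms4a1 at 0. The choroid plexus list reached 677.2 CPM in striatum 2, with Ttr at 579.8 CPM. That library stood apart: 986 of 10018 genes that averaged 50 counts or more were at 0 there (9.84%), against 4 to 44 such genes in each other library. Libraries also differed by transcript length. The measure was the median log2 deviation of the 25% of genes with the longest transcripts (at least 4403.25 bases). From it the median of the 25% with the shortest (at most 1856.75 bases) was subtracted. This long minus short difference was −0.59 in cerebellum 1, −0.50 in hippocampus 2 and −0.95 in cortex 1. In the other 9 libraries it lay between 0.02 and 0.71, with the highest value in cerebellum 3.

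None of the 10 genes passed the test for a difference between regions. In the test of the 4 regions together (edgeR quasi-likelihood test, Benjamini-Hochberg adjustment over 12217 genes), 0 of 10 passed an adjusted p of 0.05, with an adjusted p of 1 for each, and 0 of all genes passed (0%). DESeq2 and limma-voom also called 0 of the 10, and over all genes they called 5 and 0. At an unadjusted p under 0.05, 0 of the 10 and 222 of all genes (1.82%) stood out. In the 6 comparisons of pairs of regions 0 of 10 genes were called in each, against 0% of all genes in each, and the smallest adjusted p of any of them was 0.8045. The 60 comparisons held 1 at an unadjusted p under 0.05, Cd2ap in cerebellum against striatum, where the share over all genes was 2.4%. The shares over all genes in the other pairs were 1.01% for hippocampus against cortex, 5.59% for striatum against cortex, 1.55% for cerebellum against cortex, 4.34% for striatum against hippocampus and 1.28% for cerebellum against hippocampus. A p above the threshold does not show equal levels. For 9 of the genes the 95% intervals of the log2 differences reached 0.405 to 0.704 on either side of the estimate, and for Sorl1 they were several times wider.

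**Figure D1:**
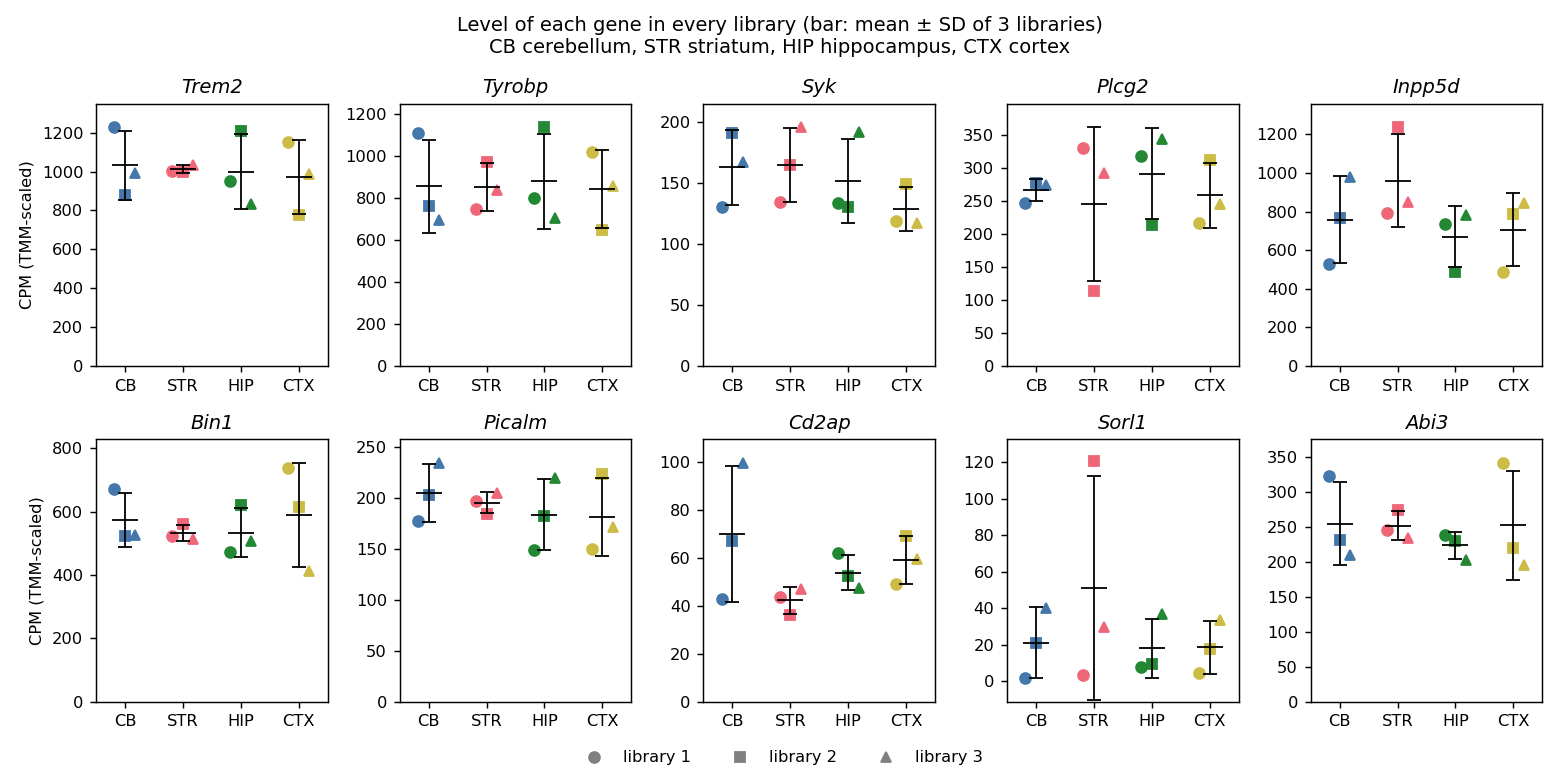
Level of each gene in CPM (vertical axis, from 0 except for Sorl1, whose SD bar in striatum extends below 0) in cerebellum, striatum, hippocampus and cortex. Points are libraries, with shapes for library numbers, and bars are mean ± SD of 3 libraries; the regions overlap for most genes, and Sorl1 in striatum 2 stands at 120.4 CPM.

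Trem2 (chr17:48346401-48354147, plus strand; gene positions are those of GENCODE M21 on GRCm38, and all 10 genes are protein coding) had region means that lay near each other as measured. It had 1227, 879 and 991 CPM in cerebellum, 1003, 996 and 1035 CPM in striatum, 951, 1211 and 834 CPM in hippocampus, and 1153, 776 and 987 CPM in cortex. All CPM values use library sizes scaled by the TMM method, which corrects for differences in library composition. The region means ran within 0.09 on the log2 scale, less than the spread between libraries of a region (SD 0.23). The striatal libraries were the most alike, with an SD of 20.9 CPM, against 177.4 in cerebellum, 193.1 in hippocampus and 188.7 in cortex. The pair with the smallest p was cerebellum against cortex, with a log2 difference of 0.09 ± 0.19 (SE, n = 3 each) and a 95% interval of −0.32 to 0.49 (edgeR adjusted p = 1). With a correction for transcript length, chosen after seeing the data, that difference was 0.30 (edgeR unadjusted p = 0.0442, adjusted p = 1), and without cerebellum 1 it was −0.057.

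Tyrobp (chr7:30413760-30417585, plus strand), the adaptor, followed Trem2 from library to library. Its levels were 1110, 762 and 695 CPM in cerebellum, 747, 973 and 837 CPM in striatum, 800, 1136 and 703 CPM in hippocampus, and 1020, 648 and 856 CPM in cortex. Cerebellum 1, hippocampus 2 and cortex 1 were the 3 highest libraries of both genes, and cortex 2 was the lowest of both. The region means of Tyrobp lay within 0.06 on the log2 scale. The pair with the smallest p, hippocampus against cortex, gave a log2 difference of 0.06 ± 0.24 (SE), with an interval of −0.45 to 0.57 (edgeR adjusted p = 1), and 0.28 with the length correction.

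Syk (chr13:52583173-52648792, plus strand), the kinase that docks on phosphorylated TYROBP, had 131, 192 and 167 CPM in cerebellum, 135, 165 and 196 CPM in striatum, 134, 130 and 192 CPM in hippocampus, and 119, 149 and 118 CPM in cortex. Cortex had the lowest mean, 128.8 ± 17.8 CPM (SD, n = 3), but its highest library lay within the range of the other regions. Striatum against cortex gave a log2 difference of 0.36 ± 0.23 (SE), with an interval of −0.14 to 0.86 (edgeR adjusted p = 0.8057). It was 0.17 with the length correction and 0.22 without striatum 3.

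Plcg2 (chr8:117498291-117635142, plus strand), the phospholipase, had 247, 276 and 274 CPM in cerebellum, 330, 113 and 291 CPM in striatum, 318, 213 and 343 CPM in hippocampus, and 216, 312 and 245 CPM in cortex. Its low value in striatum 2 was below every other library, and the range over libraries was 3.04-fold. Striatum against hippocampus gave a log2 difference of −0.25 ± 0.33 (SE; interval −0.95 to 0.45, edgeR adjusted p = 0.9634), and 0.10 without striatum 2.

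**Figure D2:**
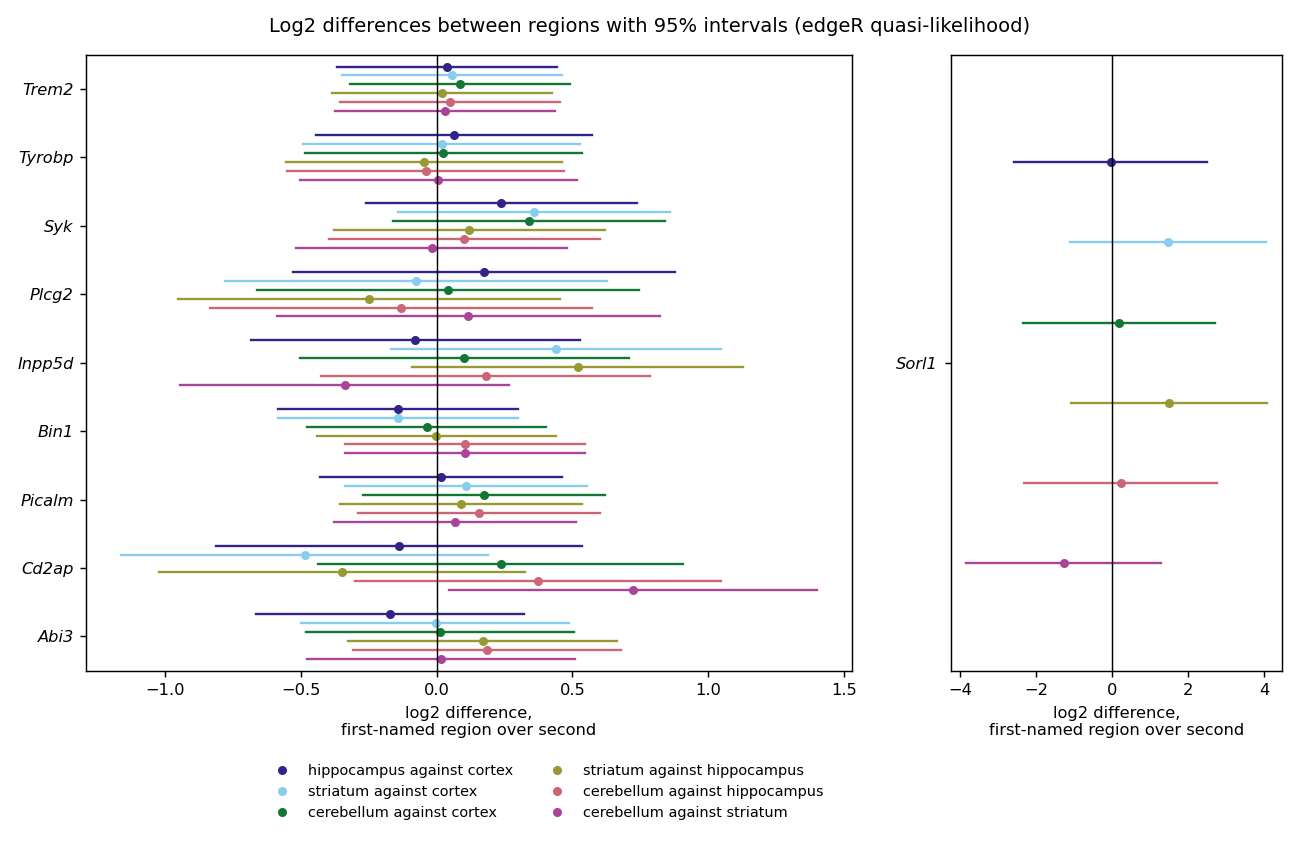
Log2 differences of the 10 genes between pairs of regions (horizontal axis, first-named region over second) with 95% intervals from the edgeR quasi-likelihood fit; Sorl1 has its own scale at the right. Of the 60 intervals 1, that of Cd2ap in cerebellum against striatum (0.045 to 1.4), leaves out 0.

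Inpp5d (chr1:87620312-87720507, plus strand), the SHIP1 gene, was the gene of the signalling group with the widest differences between region means. It had 527, 767 and 981 CPM in cerebellum, 791, 1236 and 851 CPM in striatum, 736, 488 and 784 CPM in hippocampus, and 488, 790 and 843 CPM in cortex. All 3 striatal libraries were above all 3 hippocampal ones, with 790.9 CPM in striatum 1 against 783.8 CPM in hippocampus 3 as the nearest libraries. The log2 difference of striatum over hippocampus was 0.52 ± 0.28 (SE), with an interval of −0.09 to 1.13 (edgeR adjusted p = 0.9476). It was 0.30 without striatum 2 and 0.34 without hippocampus 2. Inpp5d was lowest in cortex 1, hippocampus 2 and cerebellum 1, the 3 libraries with fewer counts from long transcripts. The summed border macrophage markers were also lowest there, at 256.2 CPM in cerebellum 1, 372 CPM in hippocampus 2 and 276.9 CPM in cortex 1. Most of each sum was Mrc1, at 229.2, 338 and 252.6 CPM in the same order. Of the list, only Mrc1 had its 3 lowest levels in these 3 libraries. Pf4 and Cbr2 were lower in striatum 1 and in cerebellum 2, and F13a1 was lowest in striatum 1, at 1.065 CPM. Cd163 and Lyve1 were at 0 in striatum 1 and cortex 2, among others, and Ms4a7 was at 0 in striatum 2. The part of border macrophages in the result was not tested. In bulk libraries, fewer cells of a type and less RNA per cell cannot be told apart.

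Non-overlapping libraries were found in 3 of the 60 comparisons. In striatum against hippocampus 2 of 10 genes had libraries apart (Inpp5d higher, Cd2ap lower), where 11.5% of all genes did. In striatum against cortex it was 1 of 10 (Cd2ap lower), where 10.6% of all genes did. In the other 4 pairs it was 0 of 10, against 6.69% of all genes in hippocampus against cortex, 6.75% in cerebellum against cortex, 7.63% in cerebellum against hippocampus and 6.34% in cerebellum against striatum.

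Bin1, which encodes a membrane-bending protein, had 671, 523 and 526 CPM in cerebellum, 523, 562 and 513 CPM in striatum, 473, 619 and 507 CPM in hippocampus, and 738, 613 and 414 CPM in cortex. Cortex held both the highest and the lowest library of all 12. Exons of Bin1, on chromosome 18, overlap those of the noncoding gene A830052D11Rik over 246 bases. Striatum against cortex gave a log2 difference of −0.14 ± 0.20 (SE; interval −0.59 to 0.30, edgeR adjusted p = 0.8964), −0.031 with the length correction and 0.049 without cortex 1. Picalm (chr7:90130213-90213465, plus strand), the clathrin assembly gene, had 178, 203 and 234 CPM in cerebellum, 197, 185 and 205 CPM in striatum, 149, 183 and 220 CPM in hippocampus, and 150, 224 and 171 CPM in cortex. It had the smallest range of the 10 genes, 1.57-fold, and all regions overlapped. Its log2 difference of cerebellum over cortex was 0.17 ± 0.21 (SE; interval −0.27 to 0.62, edgeR adjusted p = 1). It was 0.047 without cortex 1, 0.35 without cortex 2 and 0.069 with the length correction.

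Cd2ap (chr17:42792951-42876665, minus strand), a scaffold between receptors, endocytic proteins and actin, was the gene with the lowest unadjusted p. It had 43.1, 67.1 and 99.7 CPM in cerebellum, 43.9, 36.2 and 47.0 CPM in striatum, 62.1, 52.6 and 47.3 CPM in hippocampus, and 49.4, 69.3 and 59.4 CPM in cortex. The striatal libraries lay below every hippocampal and cortical library, and cerebellum 1 lay among them. Cerebellum against striatum gave a log2 difference of 0.72 ± 0.31 (SE), with an interval of 0.045 to 1.40 (edgeR adjusted p = 1). Of the cerebellar libraries 2 of 3 were above every striatal one. The difference was 0.38 without cerebellum 3, 0.98 without cerebellum 1 and 0.62 without striatum 2. Striatum against hippocampus gave −0.35 ± 0.31 and striatum against cortex −0.49 ± 0.31 (SE; edgeR adjusted p = 0.9545 and 0.805).

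Sorl1 (chr9:41964720-42124297, minus strand), the endosomal sorting receptor, varied far more than the other genes. It had 1.62, 21.2 and 40.4 CPM in cerebellum, 3.31, 120.4 and 29.9 CPM in striatum, 7.80, 9.42 and 36.8 CPM in hippocampus, and 4.41, 17.9 and 33.3 CPM in cortex. The highest library was 74.3-fold above the lowest, against 1.57- to 3.04-fold for the other 9 genes. The within-region SD of its log2 level, 1.99, was wider than that of 92.5% of the genes tested, whereas the shares for Picalm, Trem2 and Bin1 were 6.83%, 7.31% and 9.91%. Striatum against hippocampus gave a log2 difference of 1.50 ± 1.19 (SE; interval −1.08 to 4.09, edgeR adjusted p = 0.9481), and −0.11 without striatum 2. It was 0.38 in limma-voom. Sorl1 exons overlap those of the antisense gene Gm16214 over 185 bases, and the kit does not mark strand.

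Abi3 (chr11:95830074-95842476, minus strand), the WAVE complex adaptor, had 322, 231 and 210 CPM in cerebellum, 246, 274 and 234 CPM in striatum, 239, 229 and 202 CPM in hippocampus, and 340, 220 and 195 CPM in cortex. Cortex again held the highest and the lowest library. Cerebellum against hippocampus gave a log2 difference of 0.19 ± 0.23 (SE; interval −0.31 to 0.68, edgeR adjusted p = 1). The exons of Abi3 overlap those of Phospho1 on the opposite strand over 1590 bases, so reads there cannot be told apart by strand.

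**Figure D3:**
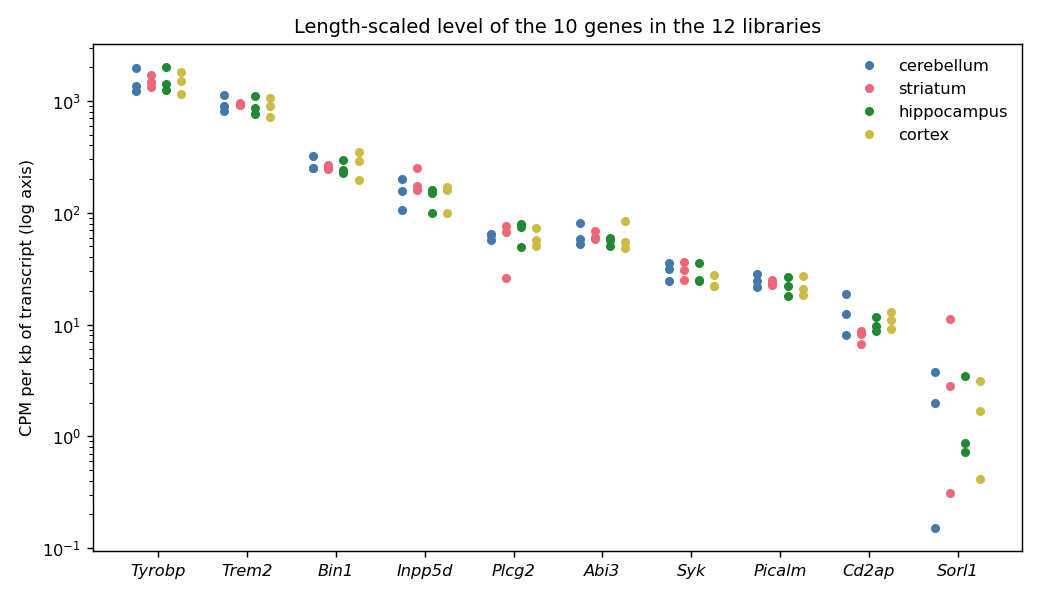
CPM per kb of transcript (vertical axis, log scale) of the 10 genes in the 12 libraries, ordered by mean; points are libraries, coloured by region. Tyrobp and Trem2 stand above the other genes in all 12 libraries, and Sorl1 is at the lower end.

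Scaled by transcript length, the receptor and its adaptor were among the most abundant messages of these cells. Tyrobp averaged 1520 CPM per kb and ranked 15 among 12052 genes with a length, and Trem2 averaged 922.4 CPM per kb and ranked 35. Bin1 followed at 266.3 CPM per kb (rank 171) and Inpp5d at 156.7 (rank 389). Plcg2 averaged 61.6 and Abi3 61.2 CPM per kb, Syk 28.4 and Picalm 23.4. Cd2ap averaged 10.5 and Sorl1 2.54 CPM per kb, at ranks 6246 and 9374. Tyrobp stood first and Trem2 in second place in 12 of 12 libraries, and Sorl1 was lowest in 11 of them. In striatum 2 the lowest was Cd2ap. Neighbours in this order whose ranges over the 12 libraries overlapped were Bin1 (197.8 to 353.1 CPM per kb) and Inpp5d (98.9 to 250.4), Plcg2 (26.2 to 79.7) and Abi3 (48.8 to 85.0), Syk (21.9 to 36.5) and Picalm (18.2 to 28.6), Picalm and Cd2ap (6.75 to 18.6), and Cd2ap and Sorl1 (0.151 to 11.2).

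**Figure D4:**
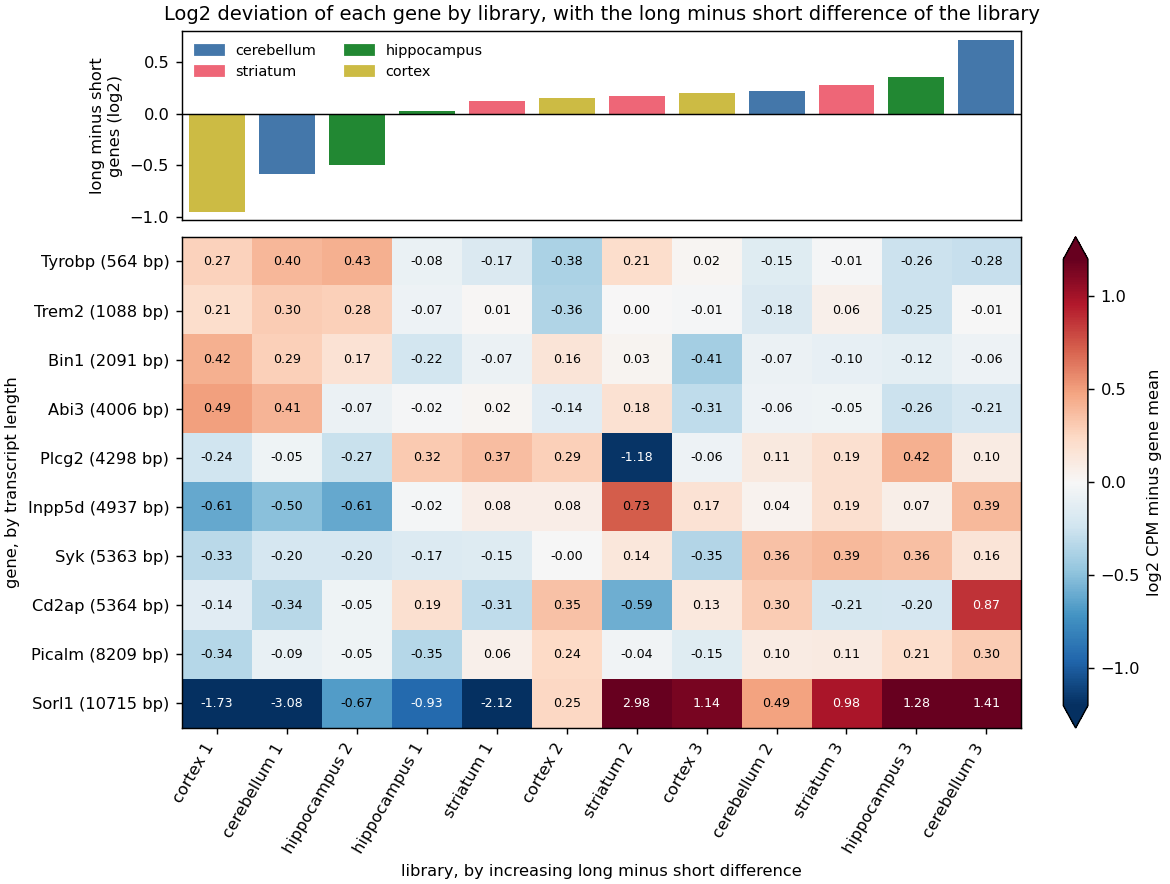
Lower panel: log2 CPM of each gene minus its mean over 12 libraries, with genes ordered by transcript length and libraries by the long minus short difference shown as bars in the upper panel (log2). Trem2 and Tyrobp are highest, and Inpp5d is lowest, in the 3 libraries with a negative bar.

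The levels of the receptor and the adaptor were set against those of the kinase and the phospholipase over the 12 libraries, as 6 pairs with two-sided permutation tests (100000 permutations) adjusted over the 6. Trem2 and Tyrobp were correlated, with Pearson r = 0.883 (permutation p = 0.00017, adjusted p = 0.00102) and Spearman rho = 0.79 (permutation p = 0.00341, adjusted p = 0.0205). Without cortex 2 and cerebellum 1, the libraries farthest from the median of Trem2, r was 0.81. On deviations from the region means r was 0.897. Within the 9 libraries whose long minus short difference was above 0, r was 0.659 and rho 0.517 (exact permutation p = 0.0552 and 0.162, adjusted p = 0.166 and 0.486), which missed the threshold at n = 9 without showing that the relation was absent, and the other 3 libraries are too few for a value. With the trend on transcript length removed from each library, r was 0.869 (permutation p = 8e-04, adjusted p = 0.0048), and 0.563 without cortex 1 and cortex 2, so it rested largely on those libraries.

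Tyrobp and Plcg2 were inversely related by rank but did not pass for Pearson's r, with r = −0.617 (permutation p = 0.0202, adjusted p = 0.0606) and rho = −0.734 (permutation p = 0.00852, adjusted p = 0.0256), and r = −0.717 without hippocampus 2 and cerebellum 1. Without striatum 2, where Plcg2 was lowest, r was −0.816 (permutation adjusted p = 0.00861). In the 9 libraries above, r was −0.757 (exact permutation p = 0.0137, adjusted p = 0.0822) and rho −0.533 (exact permutation p = 0.148). Once the trend on transcript length was removed from each library, neither measure passed. There r was −0.552 (permutation adjusted p = 0.298) and rho −0.448 (permutation adjusted p = 0.441), and r was −0.86 without cortex 1 and cortex 2. Trem2 and Syk gave r = −0.506 (rho −0.392, permutation adjusted p = 0.173 and 0.211) and Trem2 and Plcg2 r = −0.393 (rho −0.545, permutation adjusted p = 0.258 and 0.107). Tyrobp and Syk gave r = −0.48 (rho −0.566, permutation adjusted p = 0.173 and 0.107) and Syk and Plcg2 r = 0.133 (rho 0.476, permutation adjusted p = 0.728 and 0.146). In these 4 pairs r without the 2 farthest libraries was −0.59, −0.385, −0.357 and −0.105 in the order given. Without striatum 2, Trem2 and Plcg2 gave r = −0.75 and rho = −0.627 (permutation adjusted p = 0.0176 and 0.0563). On deviations from the region means, where p-values may be too small, Trem2 and Syk gave r = −0.725 (permutation adjusted p = 0.0261). With the length trend removed these pairs gave r = −0.329 and −0.132, in that order.

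**Figure D5:**
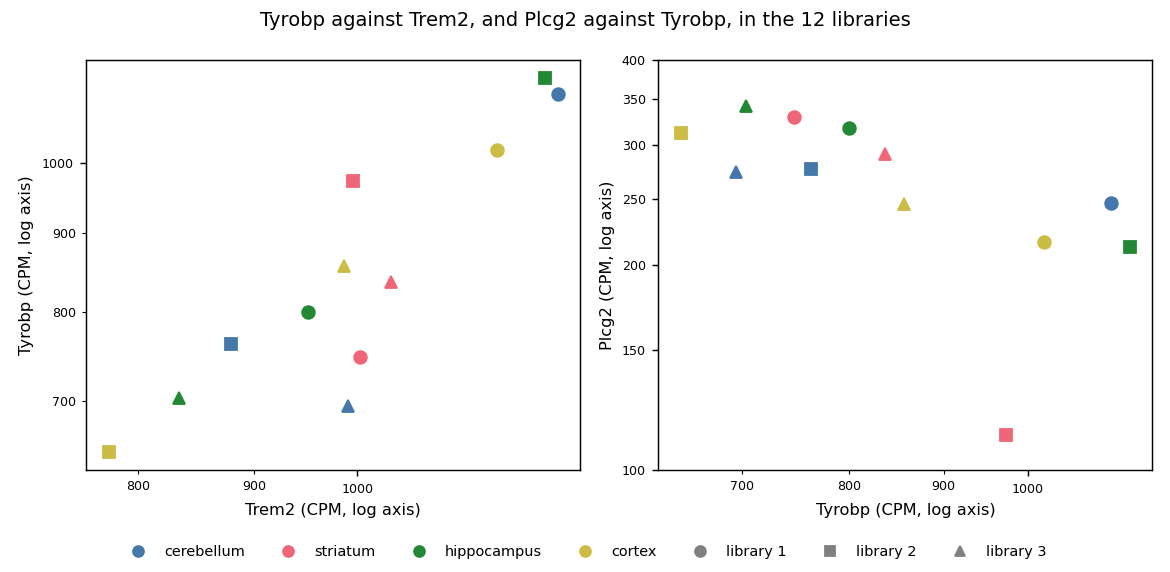
Left: Tyrobp against Trem2; right: Plcg2 against Tyrobp (CPM, log axes), 1 point per library, coloured by region with shapes for library numbers. Cerebellum 1, hippocampus 2 and cortex 1 stand at the upper end of both Trem2 and Tyrobp, and striatum 2 has the lowest Plcg2, at 112.7 CPM.

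The genes whose pattern over the 12 libraries lay nearest to a given gene were found by the root mean square difference in log2 deviation among 10927 genes. For Trem2 these were H2-D1 (0.07), Coro1b (0.09) and Abhd12 (0.09), against a size of 0.19 for the deviations of Trem2 itself. For Tyrobp they were Tmsb4x (0.10), Polr2g (0.11) and Gnas (0.11), against 0.26. For Bin1 they were Rhog (0.08), Cryba4 (0.10) and Plekho1 (0.11), against 0.22. For Sorl1 the nearest genes were no closer than 0.76 (Grlf1), 0.78 (Eif2c3) and 0.78 (Serac1), against 1.67.

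Genes around the receptor were examined as lists, described by counts and medians. None of their genes passed an adjusted p of 0.05 in the 4 regions or in any pair (edgeR), as for the table as a whole. Of 33 genes of the tyrosine motif cascade (kinases, adaptors, lipid kinases and relays to calcium and NF-kappa B), 32 were tested, and 5 had an unadjusted p under 0.05 in striatum against cortex, where 5.59% of all genes did. The count was 2 in striatum against hippocampus (4.34% of all genes), 1 in cerebellum against hippocampus (1.28%) and 0 in the other 3 pairs and over the 4 regions. The median log2 difference of the list was 0.21 in striatum against cortex, against −0.06 over all genes, and −0.02 in hippocampus against cortex, against −0.02 over all genes. Over the 4 regions the smallest p-values belonged to Card9, Vav2 and Pik3ap1. Card9, an adaptor towards NF-kappa B, had 53.5 ± 17.9 CPM in cerebellum, 61.0 ± 23.1 in striatum, 27.8 ± 10.4 in hippocampus and 43.5 ± 5.2 in cortex (SD, n = 3 each). Vav2, an exchange factor in the cascade, had 117.4 ± 44.7 CPM in cerebellum, 146.0 ± 41.9 CPM in striatum, 80.9 ± 18.4 CPM in hippocampus and 86.7 ± 29.0 CPM in cortex. Pik3ap1, an adaptor for PI3 kinase, had 268.2 ± 22.8 CPM in cerebellum, 323.3 ± 40.5 CPM in striatum, 279.4 ± 47.0 CPM in hippocampus and 220.0 ± 53.3 CPM in cortex. In all 3 genes the highest mean was in striatum and the highest library was striatum 2, which stood apart by its missing genes. Without it, Card9 had 49.2 and 46.2 CPM in striatum, against 32.9, 62.9 and 64.7 CPM in cerebellum. Hcst, the adaptor DAP10 that also pairs with TREM2, was low, at 5.29 to 15.9 CPM over the 12 libraries.

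On the inhibitory side, all 18 phosphatases, ligases, docking proteins and inhibitory receptors were tested, and 2 had an unadjusted p under 0.05 in cerebellum against cortex, where 1.55% of all genes did, with a list median of 0.19 against 0.01 over all genes. The count was 1 in cerebellum against hippocampus (1.28% of all genes) and 0 in the other 4 pairs and over the 4 regions. The genes in cerebellum against cortex were Dok2, a docking protein that dampens kinase signals, at 15.1 ± 4.8 CPM in cerebellum and 36.1 ± 6.8 CPM in cortex, and Pilra, an inhibitory receptor, at 25.4 ± 10.7 CPM in cerebellum and 44.8 ± 2.8 CPM in cortex (SD, n = 3 each; edgeR adjusted p = 1 for both). In both genes all 3 cerebellar libraries lay below all 3 cortical ones, and libraries of that pair were apart for 6.75% of all genes. Sirpa, the receptor of the "do not eat me" protein CD47, was at 3392 ± 559.6 CPM in cerebellum, 3512 ± 173.8 CPM in striatum, 3070 ± 251.7 CPM in hippocampus and 2757 ± 556.5 CPM in cortex. Inppl1, the gene of the related phosphatase SHIP2, had 20.2 to 99.7 CPM.

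Of 8 other receptors that couple to TYROBP, 3 were tested. Siglech, a receptor of the Siglec family, stood at 1402 to 2390 CPM and Clec5a, a C-type lectin, at 115.6 to 218.7 CPM, whereas Cd300c2 was at 0 to 3.76 CPM. The other 5, Trem1, Trem3, Sirpb1a, Pilrb1 and Pilrb2, did not pass the filter, with at most 2.53 CPM in any library. Treml2, a relative of Trem2, had 0 to 19.7 CPM, with 0 in striatum 2. Of 16 genes for ligands, interactors and proteases that cleave TREM2, 14 were tested. Ncstn, a subunit of gamma secretase, had 497.8 ± 18.7 CPM in cerebellum, 554.6 ± 27.0 CPM in striatum, 515.4 ± 24.96 CPM in hippocampus and 432.5 ± 59.6 CPM in cortex. Its striatal libraries all lay above the cortical ones, with a log2 difference of 0.36 ± 0.14 (SE; edgeR adjusted p = 0.7979). Libraries of that pair were apart for 10.6% of all genes. Adam17, a shedding protease, had 199.8 to 545.9 CPM and Ms4a6c, of the MS4A family, 20.6 to 73.4 CPM.

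Of 30 other Alzheimer risk genes 27 were tested, and the list median lay between 0.03 and 0.16 in the 6 pairs, against −0.06 to 0.06 over all genes. Tmem106b, a lysosomal membrane protein gene, had 135.1 ± 51.9 CPM in cerebellum, 133.5 ± 38.6 CPM in striatum, 76.5 ± 9.2 CPM in hippocampus and 92.3 ± 63.1 CPM in cortex. Sppl2a, an intramembrane protease gene, had 112.8 to 259.4 CPM in cerebellum and 87.9 to 106.8 CPM in cortex, with libraries that did not overlap (log2 difference 0.86 ± 0.39 SE, edgeR adjusted p = 1). In that pair 6.75% of all genes had libraries apart. Nck2, an adaptor gene, reached at most 3.91 CPM.

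Of 39 genes of endocytosis and sorting 34 were tested, and list medians stayed within 0.06 of 0 in all 6 pairs. Sort1, the sortilin gene and a relative of Sorl1, was the 1 gene of all these lists with an unadjusted p under 0.05 over the 4 regions (edgeR adjusted p = 1), where 1.82% of all genes had one. Without striatum 2, its highest library, that unadjusted edgeR p was 0.153. It had 201.4, 255.7 and 312.8 CPM in cerebellum, 263.2, 499.5 and 302.2 CPM in striatum, 159.9, 192.8 and 247.1 CPM in hippocampus, and 122.3, 194.5 and 245.3 CPM in cortex. The striatal libraries were above all hippocampal and cortical ones, with log2 differences of 0.83 ± 0.30 against hippocampus and 0.92 ± 0.30 against cortex (SE; edgeR adjusted p = 0.9476 and 0.7979). Of all genes, 11.5% had libraries apart in striatum against hippocampus and 10.6% in striatum against cortex. Eps15, a clathrin coat scaffold, had 146.1 to 184.4 CPM in striatum and 46.5 to 118.9 CPM in cortex. These did not overlap either, as for 10.6% of all genes in that pair (log2 difference 0.98 ± 0.41 SE, edgeR adjusted p = 0.7979). Cltb, a clathrin light chain, had 23.4 to 65.6 CPM. Among relatives of the 10 genes, Amph and Snap91, the neuronal relatives of Bin1 and Picalm, were at 0 to 0.647 CPM and 0 to 31.5 CPM, with the highest Snap91 in striatum 2. Sh3kbp1, a relative of Cd2ap, had 139.8 to 237.7 CPM and Plcg1, the relative of Plcg2, 26.5 to 193.8 CPM.

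Of 12 genes of the WAVE complex and its Rac partners 11 were tested, and 2 had an unadjusted p under 0.05 in striatum against cortex, where 5.59% of all genes did, and 1 in cerebellum against cortex (1.55% of all genes). One of the genes in striatum against cortex was Nckap1l, the haematopoietic subunit HEM1. It had 889.4 to 1089 CPM in striatum and 462.1 to 835.3 CPM in cortex (log2 difference 0.54 ± 0.25 SE, edgeR adjusted p = 0.7979). These libraries did not overlap, as for 10.6% of all genes in that pair. The other was Cyfip2, which had no count in 8 of the 12 libraries and at most 11.4 CPM. Rac2, a blood cell GTPase, had 176 to 424.2 CPM, with the lowest in striatum 2. Abi1 and Abi2, the relatives of Abi3, had 123.4 to 199.2 CPM and 40.3 to 196.4 CPM.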

How the data were processed

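RNA was measured in 12 libraries of sorted mouse microglia, 3 per region. The values the authors deposited are raw read counts, whole numbers for each gene symbol, without scaling. STAR 2.5.3a, Trim Galore 0.4.3, HTSeq and Picard, with the mm10 build, were the tools, per the submitters' processing notes. Their roles, the annotation and whether counting used strand are not given in the sources used for this work. Per the labels' protocols, Smart-Seq v4 cDNA was made into Nextera XT libraries, and that kit does not mark strand.

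Counts were fitted in R 4.3.3 with edgeR 4.0.16: filterByExpr grouped by region (at least 10 counts in enough libraries and 15 in total), TMM scaling and a robust quasi-likelihood fit with a mean per region over the 12 libraries. P-values were adjusted by the Benjamini-Hochberg method over 12217 genes, with a threshold of 0.05. Correlations used log2 CPM with a prior count of 2, with 100000 permutations, or all permutations for 9 libraries. Lengths are those of the principal transcript in GENCODE M21 basic, and 22820 of the 23337 symbols had one. Alternatives were DESeq2 1.42.0, limma-voom (limma 3.58.1), RLE size factors, no filter, the replicate number as a block, leaving out each library, and corrections for transcript length (lowess, span 0.5) chosen after seeing the data, as were the correlations within the 9 libraries with a long minus short difference above 0. Of these fits only the main edgeR one was tested on simulated counts, for cerebellum against cortex.

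The 10 genes and the other lists were chosen with earlier results of these data known. Named were all 10, with the pair of regions of smallest p, the 3 genes of each list with the smallest p over the 4 regions, relatives of the 10, and the 3 nearest genes in pattern for Trem2, Tyrobp, Bin1 and Sorl1. The genes given as not passing the filter, and Phospho1, Gm16214 and A830052D11Rik, were added after their values or positions were seen. Cd300c2 and Sppl2a stand in the table under older symbols. Totals of 6479839 to 14833340 counts set the precision: 3 counts, the limit that a count of 0 allows, are 0.194 to 0.485 CPM. No molecular identifiers were used, so reads are not independent molecules and this limit covers counting error alone. Libraries of a region differed by more than sampling noise in every pair (chi-square per degree of freedom 32.5 to 93.3).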

Additional observations from a re-analysis of the deposited data

How the results depend on the processing

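The count of the 10 genes called was 0 in the test of the 4 regions and in each of the 6 pairs under every alternative run and without any one library. By rank, Trem2 and Tyrobp passed as measured, and so did Tyrobp and Plcg2 (Spearman's rho, permutation adjusted p = 0.0205 and 0.0256). By Pearson's r, the number of pairs among Trem2, Tyrobp, Syk and Plcg2 with an adjusted p under 0.05 was 1. It was 3 on deviations from the region means and 0 in the 9 libraries with a long minus short difference above 0, and it ran from 1 to 3 without any 1 library, with 3 without striatum 2. With the replicate block (deviations from the replicate number means) it was 2. Both kinds of deviation were permuted freely over the libraries, without allowance for the means removed, so their p-values may be too small. The r of Tyrobp and Syk turned to 0.029 with the length trend removed, and that of Syk and Plcg2 to −0.015 in those 9 libraries. The r of Trem2 and Tyrobp ran from 0.85 to 0.931 without any 1 library. Without 1 library, the log2 difference of each gene was followed only in its pair of regions with the smallest p. Those that changed sign ran from −0.057 to 0.22 for Trem2, −0.16 to 0.22 for Tyrobp and −0.52 to 0.10 for Plcg2. They ran from −0.35 to 0.049 for Bin1, −0.11 to 2.56 for Sorl1 and −0.019 to 0.31 for Abi3. Those of the other 4 genes kept their sign in that pair, and other pairs were not followed. The causes were not tested. Over all genes, edgeR called 0 in each comparison and limma-voom 0, and DESeq2 called 5 over the 4 regions, 5 in hippocampus against cortex, 13 in striatum against cortex, 7 in cerebellum against cortex, 0 in striatum against hippocampus, 2 in cerebellum against hippocampus and 3 in cerebellum against striatum. Whether replicate numbers pair libraries across regions was not settled. Deviations of 4 of 18 same-numbered pairs had r over 0.1 (−0.12 to 0.287). The median r was 0.026, against −0.013 for other pairs between regions, and 9 of 12 libraries correlated best with their own number. The replicate block changed no call among the 10 genes. With 3 libraries a region, the 95% intervals of the 60 log2 differences reached at least 0.405 on either side of the estimate.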

Other observations

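Sorl1 was lowest, within each of the 4 regions, in the library numbered 1: 1.62 CPM in cerebellum, 3.31 CPM in striatum, 7.80 CPM in hippocampus and 4.41 CPM in cortex, against 9.42 to 120.4 CPM in the other 8 libraries. The number alone does not show that these libraries are paired. With the trend on transcript length removed from each library, the SD over the 12 libraries of log2 Inpp5d was 0.24, against 0.40 as measured, and that of Bin1 0.17 against 0.23. That of Abi3 was 0.35, against 0.25 as measured, and that of Sorl1 1.52, against 1.74.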
